A study of Mus musculus with 30 samples.

Results

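Mouse embryonic fibroblasts (MEFs) were compared across one step of their reprogramming by 4 delivered transcription factors, from day 2 to day 4. The comparison rests on 4 of the 30 libraries of the series, 2 from day 2 and 2 from day 4, taken by their titles from a table of 10 libraries that also holds days 0 and 7 and the finished induced pluripotent stem cells (iPSCs). Both groups were of genotype 129XOG2. OG2 mice carry a green fluorescent protein reporter under Pou5f1 (Oct4) control. MEFs of passage 1 to 3 received lentivirus for Oct4, Sox2, Klf4 and c-Myc and were replated 24 h later. On the following day they were moved to a medium with fetal bovine serum, knockout serum replacement and 2 µg/ml doxycycline, and were labelled only as reprogramming intermediates. Total RNA was sequenced with reads of 150 bp. By this description both groups followed the same protocol and differ in day. The step from which the days are counted is not stated here, so the time in this medium and doxycycline by day 2 is unknown. Whether the groups come from the same infection, culture or library preparation is not told, so other differences may go with the day. Nothing in the labels tells whether the 2 libraries of a day are from separate cultures. The p-values therefore reflect only how far the fitted libraries spread, and that spread may be technical.

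Reprogramming of fibroblasts is a staged process. Early stages are known for loss of the contractile, mesenchymal programme and gain of epithelial junctions and keratins (the mesenchymal-to-epithelial transition), and the core pluripotency network with Nanog and Pou5f1 becomes self-sustaining later. Fibroblasts plated on plastic resemble activated myofibroblasts, with actin stress fibres, matrix secretion and active TGF-beta and YAP signalling.

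RNA was measured as FPKM, a fragment count scaled to transcript length and library size, given by the authors per gene. Differences are given on the log2(FPKM + 1) scale as day 4 minus day 2, which makes changes of weakly expressed genes look smaller. A gene under 1 FPKM in both day 2 libraries cannot fall by 1 on this scale. Of all genes, 14761 reached an FPKM of at least 1 in 2 or more of the 10 libraries and were tested. A gene is called, and is said to rise or fall, at a limma adjusted p (Benjamini-Hochberg, over all genes tested) under 0.05 and a change of at least 1, or 2-fold. The fit used the 10 libraries, so that the 5 groups share the estimate of spread. The day 4 pair was the least alike of the 5, so the shared estimate can understate the spread on day 4. FPKM totals were 390753 to 396741 on day 2 and 433769 to 434460 on day 4. FPKM holds no read counts, so depth per library is unknown.

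The delivered factors were read first, as a check of the labels. Pou5f1 (chr17:35506018-35510772, GRCm38) measured 0.563 and 1.06 FPKM on day 2 and 52.2 and 43.7 on day 4, against 0 in both day 0 libraries, and rose (log2 change 4.76, SE 0.20, adjusted p = 4.62e-06). Myc measured 25.2 and 22.5 FPKM on day 2 and 6.47 and 3.39 on day 4 and fell (log2 change -2.12, SE 0.22, adjusted p = 0.000239). Klf4 measured 13.0 and 11.4 FPKM on day 2 and 5.38 and 2.43 on day 4 and fell (log2 change -1.49, SE 0.26, adjusted p = 0.00291). Sox2 measured 3.26 and 2.38 FPKM on day 2 and 3.82 and 2.81 on day 4 and was not called (log2 change 0.17, SE 0.20, adjusted p = 0.521). Summed over the 4 factors, FPKM was 54.8 and 55.9 on day 0, 42.0 and 37.3 on day 2, and 67.8 and 52.3 on day 4. The sum was thus lower on day 2 than on day 0. Myc and Klf4 made up most of it on day 2, so the sum cannot be read for or against delivery of the factors by day 2. In the 3 called factors both day 4 libraries lay on the same side of both day 2 libraries. For Myc and Klf4 the second day 4 library was the lower one. A value per gene cannot separate transcripts of the delivered copies from those of the cell's own genes. In bulk RNA, fewer cells of a type and less RNA per cell cannot be told apart either, here and in every result that follows.

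Between day 2 and day 4, 1610 genes were called, 10.9% of those tested: 908 rose (6.15%) and 702 fell (4.76%). Every count from a gene list below is to be read beside these shares. The median change over all genes tested was 0.0. The called genes' day 2 and day 4 libraries did not overlap in any of the 1610 cases, which was also true of 69.7% of all genes tested. The day 4 libraries carried the calls unequally. Each lay at least 2-fold from the day 2 mean for 994 of the called genes (6.73% of genes tested), of which 615 rose (4.17%) and 379 fell (2.57%). In the other 616 called genes only 1 library was past 2-fold: the second in 525 and the first in 91. With the first day 4 library left out 2484 genes were called (1170 higher, 1314 lower), and with the second left out 1255 (808 higher, 447 lower); 956 were called in the same direction with either library alone. On TPM, which rescales every library to the same total, the median of all genes moved to -0.11 and 1306 genes were called lower beside 1054 higher, so that 44.7% of the calls were higher in place of 56.4%.

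**Figure D1:**
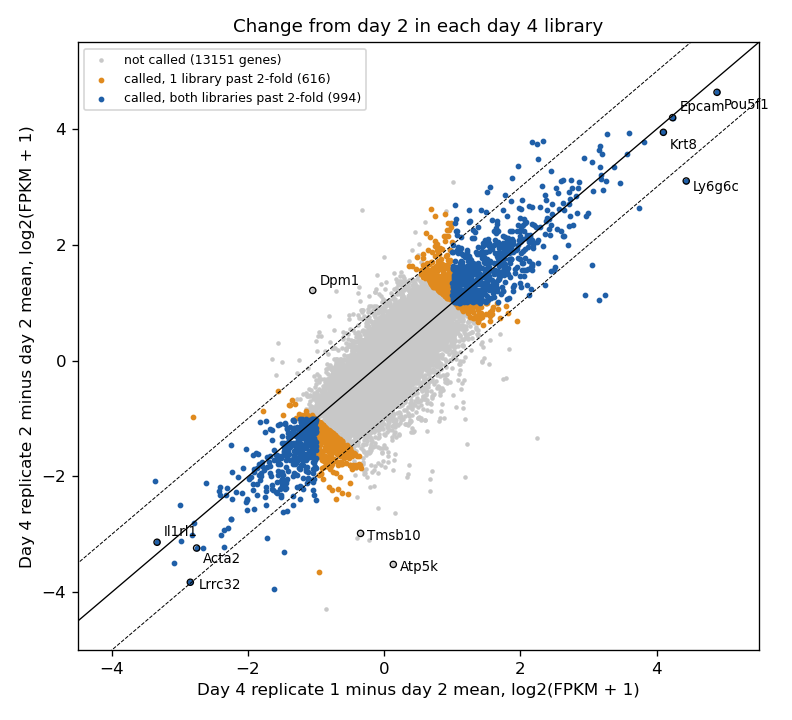
Change from the day 2 mean in day 4 replicate 1 (horizontal axis) and replicate 2 (vertical axis), in log2(FPKM + 1), for 14761 genes; the solid line marks equal change and the dashed lines 2-fold differences between the libraries. The 994 called genes past 2-fold in both libraries (blue) lie along the diagonal, the 616 carried by 1 library are orange, and Atp5k and Tmsb10 lie far below the diagonal.

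The genes named here are the 12 with the largest rise among those past 2-fold in each day 4 library, with predicted gene models left out. They were Pou5f1, Epcam, Krt8, Car9, Ly6g6c, Mmp3, Fgl2, Txnip, Spint2, Agtr2, Selenop and Krtdap, with log2 changes from 4.76 down to 3.36. Txnip, which restrains glucose uptake and binds thioredoxin, measured 6.94 and 7.35 FPKM on day 2 and 95.8 and 95.8 on day 4, and its day 4 libraries were alike (log2 change 3.57, SE 0.10, adjusted p = 1.59e-06). Selenop, the secreted selenium carrier, measured 6.21 and 6.36 FPKM on day 2 and 66.2 and 85.2 on day 4 (log2 change 3.38, SE 0.15, adjusted p = 5.31e-06). Agtr2, an angiotensin II receptor, measured 9.30 and 9.46 FPKM on day 2 and 91.8 and 129 on day 4 (log2 change 3.40, SE 0.16, adjusted p = 5.41e-06). Fgl2, a secreted fibrinogen-like protein, measured 0.878 and 1.09 FPKM on day 2 and 18.1 and 28.9 on day 4 (log2 change 3.59, SE 0.21, adjusted p = 1.71e-05). In Selenop, Agtr2 and Fgl2 the second day 4 library was the higher. Ly6g6c, a member of the Ly6 family of surface proteins, measured 0.481 and 0.224 FPKM on day 2 and 28.1 and 10.6 on day 4: the 2 day 4 libraries were more than 2-fold apart, yet both stood far above day 2 (log2 change 3.77, SE 0.37, adjusted p = 0.000148).

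The largest falls by the same rule included Lrrc32, Smoc2, Il1rl1, Acta2, Tagln, Tnfrsf12a, Gjb2, Mical2, Cnn1, Cck and Flna, from -3.34 to -2.60. Lrrc32, which holds latent TGF-beta at the cell surface, measured 76.1 and 75.5 FPKM on day 2 and 9.68 and 4.41 on day 4 (log2 change -3.34, SE 0.26, adjusted p = 5.17e-05). Il1rl1, the receptor for interleukin 33, measured 295 and 300.3 FPKM on day 2 and 28.6 and 33.0 on day 4 (log2 change -3.24, SE 0.11, adjusted p = 1.59e-06). Smoc2, a calcium-binding matrix protein, measured 39.9 and 38.7 FPKM on day 2 and 3.75 and 2.57 on day 4 (log2 change -3.29, SE 0.15, adjusted p = 5.31e-06). These day 2 levels were also above the day 0 levels for Lrrc32 and Il1rl1, which at day 0 measured 38.3 and 34.9 FPKM and 93.7 and 93.4 FPKM. Tnfrsf12a, the receptor of the cytokine TWEAK, measured 54.8 and 50.9 FPKM on day 2 and 6.57 and 5.64 on day 4 (log2 change -2.92, SE 0.14, adjusted p = 5.41e-06). Gjb2, a connexin of gap junctions, measured 6.86 and 6.44 FPKM on day 2 and 0.103 and 0.0997 on day 4 (log2 change -2.80, SE 0.11, adjusted p = 3.65e-06). Each of the 24 genes that the rule gives kept its call in all 13 alternative settings. These include leaving out any of the 4 libraries and an adjustment for GC content and length. The rule picks large changes past 2-fold in each day 4 library. Leaving out a day 4 library could therefore not bring a change under 2-fold, and the kept calls follow largely from the choice of genes.

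Pluripotency genes rose in part. All 30 genes of the naive pluripotency list passed the filter on low values; 13 rose and none fell, with a median of 0.69, beside 6.15% of all genes called higher and a median of 0.0. However, 12 of the 30 stayed under 1 FPKM in all 4 libraries and entered the test through day 7 or the iPSCs. Members under 1 FPKM in both day 2 libraries, Nanog and Nr0b1 among them, could not be called lower. That none fell is therefore partly set by their low start. Tdh, the threonine dehydrogenase of mouse embryonic stem cells, measured 1.09 and 1.33 FPKM on day 2 and 19.03 and 18.3 on day 4 (log2 change 3.16, SE 0.12, adjusted p = 3.09e-06). Nanog, a homeodomain factor of the core network, measured 0.194 and 0.156 FPKM on day 2 and 6.78 and 7.18 on day 4 (log2 change 2.76, SE 0.13, adjusted p = 6.48e-06). Nr0b1, a nuclear receptor that binds Pou5f1, measured 0.336 and 0.202 FPKM on day 2 and 6.52 and 6.83 on day 4 (log2 change 2.60, SE 0.14, adjusted p = 1.32e-05). For these 3 genes both day 4 libraries agreed closely and stood clear of day 2. Sall4 (log2 change 2.25), Utf1 (2.06), the Nodal co-receptor Tdgf1 (1.88), Fbxo15 (1.70), Eras (1.53), Lin28a (1.24), Zfp42 (1.13), Fgf4 (1.10) and L1td1 (1.06) also rose. L1td1 was not called on TPM (0.95), and Lin28a and L1td1 were not without the first day 4 library (0.99 and 0.95), Fgf4 without the second day 2 library (0.96), and Zfp42 after the GC and length adjustment (0.95). Esrrb, a late naive regulator, was at 0 in both day 2 libraries and measured 0.540 and 0.676 FPKM on day 4, and was not called; with a pseudocount of 0.1 (2.82) or on TPM (1.26) it was. Dppa5a was at 0 in both day 2 libraries and measured 0.423 and 0 FPKM on day 4, against 49.99 and 49.8 FPKM on day 7. Tdh, Nr0b1 and Sall4 measured less on day 7 than on day 4, with 7.35 and 6.53 FPKM for Tdh, 1.12 and 0.754 FPKM for Nr0b1 and 1.78 and 1.94 FPKM for Sall4; the step to day 7 was not tested here.

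Epithelial junction genes rose in part. Of 29 listed genes 27 were tested, 13 rose and none fell, beside 6.15% of all genes called higher, with a median of 0.97. Of the 27, 5 stayed under 1 FPKM in all 4 libraries and passed the filter on low values through other groups. Members under 1 FPKM in both day 2 libraries, Epcam and Cdh1 among them, could not be called lower. The absence of falls is therefore partly set by their low start. Among the 13 that rose 12 were past 2-fold in each day 4 library. Epcam, an epithelial adhesion molecule (chr17:87635979-87651129), measured 0.266 and 0.0962 FPKM on day 2 and 21.2 and 20.7 on day 4 (log2 change 4.22, SE 0.13, adjusted p = 1.59e-06). Spint2, an inhibitor of membrane serine proteases, measured 2.89 and 2.76 FPKM on day 2 and 33.3 and 49.0 on day 4 (log2 change 3.44, SE 0.21, adjusted p = 1.97e-05). Cdh1 (E-cadherin), the adherens junction cadherin, measured 0.460 and 0.424 FPKM on day 2 and 8.02 and 5.44 on day 4 (log2 change 2.40, SE 0.17, adjusted p = 3.11e-05). All 3 were higher in both day 4 libraries, with Spint2 higher in the second and Cdh1 in the first. Rab25 (2.68), Spint1 (2.22), Cldn4 (2.15), the membrane protease St14 (2.15), Perp (1.83), the polarity protein Crb3 (1.75), Pkp1 (1.66), Cldn7 (1.28), Cldn3 (1.13) and F11r (1.02) were the others that rose. Cldn3 lost its call without the first day 2 library (1.00), and F11r without the second day 2 or the second day 4 library (0.98 and 0.93), on TPM (0.996) and after the GC and length adjustment (0.99). Itga6, an integrin of hemidesmosomes, was lower on day 4 by value (48.1 and 46.1 FPKM on day 2 and 28.7 and 32.1 on day 4) but short of 2-fold.

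Among 8 tested keratins, the intermediate filament proteins of epithelia, 2 rose and 1 fell. Krt8 (chr15:101996698-102004482) measured 3.95 and 4.38 FPKM on day 2 and 87.5 and 78.5 on day 4 (log2 change 4.02, SE 0.14, adjusted p = 1.59e-06). Krt17 measured 0.420 and 0.982 FPKM on day 2 and 11.1 and 12.3 on day 4 (log2 change 2.92, SE 0.24, adjusted p = 6.42e-05). Krt18, which pairs with Krt8 in simple epithelia, measured 0.772 and 0.876 FPKM on day 2 and 3.21 and 1.77 on day 4 and was not called with both day 4 libraries (log2 change 0.91, SE 0.19, adjusted p = 0.0072); it was called without the second (1.21), with a pseudocount of 0.1 (1.43) and on TPM (1.08). Krt7 measured 1.29 and 1.82 FPKM on day 2 and 0.249 and 0.219 on day 4 and fell (log2 change -1.04, SE 0.16, adjusted p = 0.00131), a call that was lost without the second day 2 library (-0.89) and after the GC and length adjustment (-0.88). Of 11 tested regulators of epithelial transcription and splicing, 4 rose: the transcription factor Tfap2c (2.40), the splicing regulator Esrp1 (2.24), Grhl1 (1.06) and Elf3 (1.04). Esrp1 was at 0 in both day 2 libraries and measured 3.24 and 4.24 FPKM on day 4. Grhl1 lost its call without the first day 2 or the second day 4 library (0.96 and 0.95) and Elf3 without the first day 4 library (0.84).

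Among 17 tested mesenchymal transcription factors 3 fell, beside 4.76% of all genes called lower, none rose, and the median was -0.38. Foxc2 measured 10.8 and 10.6 FPKM on day 2 and 3.25 and 1.53 on day 4 (log2 change -1.84, SE 0.23, adjusted p = 0.000515), and Twist2 measured 27.5 and 35.0 FPKM on day 2 and 13.8 and 11.6 on day 4 (log2 change -1.23, SE 0.19, adjusted p = 0.00135). Snai1, a repressor of Cdh1, measured 41.3 and 39.5 FPKM on day 2 and 30.2 and 10.6 on day 4. The 2 day 4 libraries of Snai1 disagreed by more than 2-fold: the first lay nearer to day 2 and the second well below it. Its call (log2 change -1.12, SE 0.36, adjusted p = 0.0379) rested on the second library, without which the change was -0.41 and not called; it was also lost without either day 2 library and in the fit of the 4 libraries alone (adjusted p from 0.119 to 0.14), and with no filter on low values (0.105). Snai2 measured 18.4 and 18.2 FPKM on day 2 and 30.2 and 36.1 on day 4 and was not called (log2 change 0.82, SE 0.14, adjusted p = 0.0027).

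**Figure D2:**
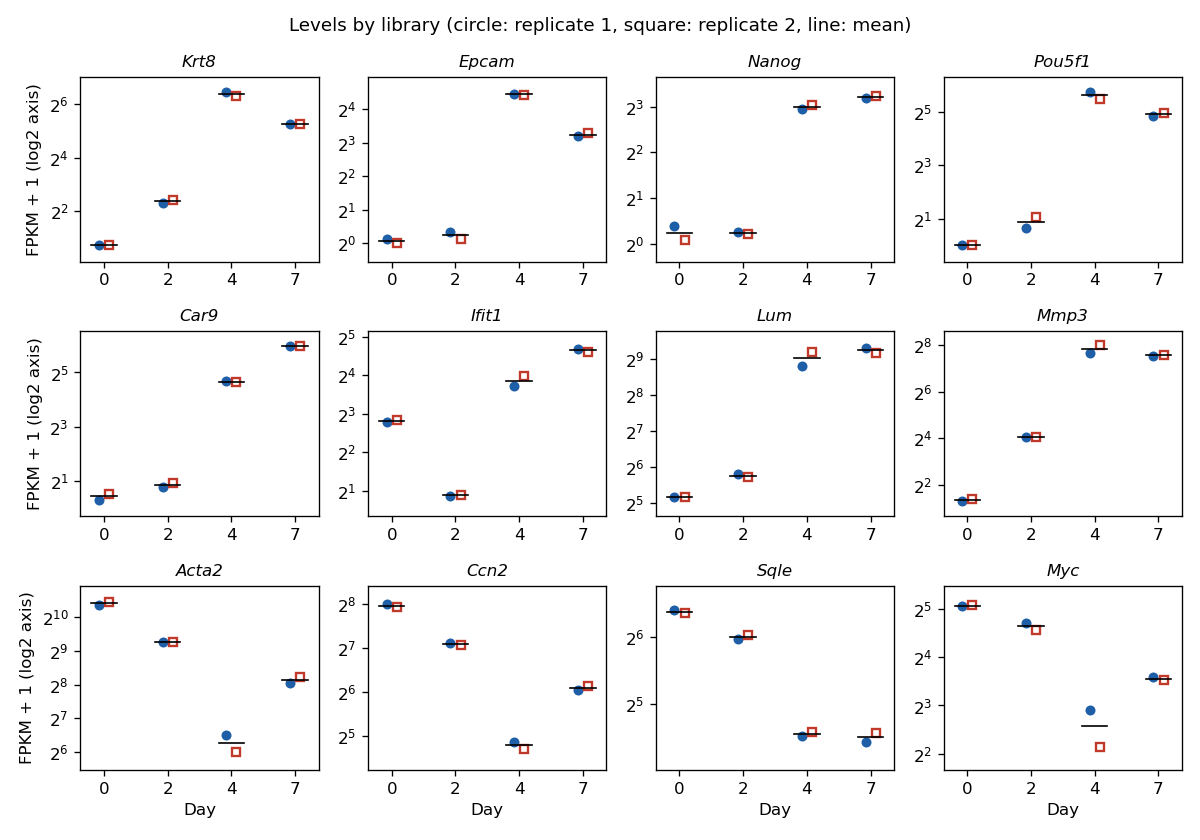
FPKM + 1 (vertical axis, log2 scale) against day of reprogramming for 12 genes; circles are replicate 1, squares replicate 2 and lines the means. The day 4 libraries stand above both day 2 libraries in the first 8 panels (Krt8 to Mmp3) and below them in the last 4 (Acta2 to Myc), with day 4 replicate 2 the lower one in Acta2, Ccn2 and Myc.

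Contractile genes fell together. Of 19 tested members of the contractile and smooth muscle list 16 fell and none rose, with a median of -1.40 (-1.32 in the first and -1.63 in the second day 4 library), beside 4.76% of all genes called lower. Acta2, the smooth muscle actin of stress fibres (chr19:34241090-34255590), measured 614 and 609 FPKM on day 2 and 89.8 and 64.0 on day 4 (log2 change -3.00, SE 0.17, adjusted p = 1.31e-05). Tagln (transgelin), an actin-bundling protein, measured 281 and 263 FPKM on day 2 and 42.3 and 27.8 on day 4 (log2 change -2.95, SE 0.22, adjusted p = 4.5e-05). Flna (filamin A), which crosslinks actin, measured 285 and 263 FPKM on day 2 and 54.7 and 35.9 on day 4 (log2 change -2.60, SE 0.19, adjusted p = 4.45e-05). For each of the 3 both day 4 libraries lay far below both of day 2, the second lowest. Cnn1 measured 31.9 and 31.9 FPKM on day 2 and 3.14 and 4.82 on day 4 (log2 change -2.75, SE 0.18, adjusted p = 2.76e-05) with the lower value in the first day 4 library. Actg2 (-2.49), Acta1 (-2.25), the myosin light chain Myl9 (-2.08), Tpm1 (-1.55), Vcl (-1.54) and Cnn2 (-1.38) fell as well. Mylk, the myosin light chain kinase, was higher by value on day 4 (3.17 and 3.00 FPKM on day 2 and 4.84 and 3.83 on day 4) and not called. On day 7 Acta2 measured 266 and 296 FPKM and Tagln 109.5 and 142 FPKM, above their day 4 levels.

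Many contractile genes carry a CArG box, the sequence bound by serum response factor, close to their start. The box was searched in its strict form only: CC, then nothing but A or T, then GG. The 250 bases before the start (RefSeq, GRCm38.p6, both strands searched) held such a box in 5 of the 17 list genes with an entry (29.4%), against 1.62% of 27025 genes. Of these 5, Acta1, Cnn2, Myl9 and Vcl fell and Actc1 was not called. Of 12 genes without a strict match 9 fell, 2 were not called and 1 was not tested. A box that departs from the strict form or lies farther off is missed here, so these genes may still carry a box. The list was chosen by known function, so the share describes the list and not the day 4 cells. The stretches with the box in capitals are shown for 3 that fell, at chr2:156775278-156775337 (plus strand), chr14:20929148-20929205 (plus strand) and chr8:123894814-123894873 (minus strand), in that order.
Myl9: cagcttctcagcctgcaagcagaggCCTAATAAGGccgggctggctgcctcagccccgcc
Vcl: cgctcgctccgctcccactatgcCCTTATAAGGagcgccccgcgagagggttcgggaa
Acta1: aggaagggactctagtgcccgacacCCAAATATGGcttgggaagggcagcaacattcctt
A match is a description of the letters and does not show binding.

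Targets and ligands of TGF-beta and targets of YAP fell in part. Of 18 tested 9 fell, beside 4.76% of all genes called lower, and 1 rose, with a median of -0.99. Ccn2, a matricellular protein, measured 139 and 133 FPKM on day 2 and 28.0 and 25.1 on day 4 (log2 change -2.32, SE 0.11, adjusted p = 5.41e-06). Pmepa1 measured 36.7 and 33.7 FPKM on day 2 and 8.15 and 7.73 on day 4 (log2 change -2.02, SE 0.11, adjusted p = 1.05e-05). The day 4 libraries were close in both genes and far below day 2. The ligands Tgfb1 (-1.79) and Tgfb3 (-1.50), the matrix protein Thbs1 (-1.69) and the YAP target Ankrd1 (-1.59) also fell. Tgfbi, a TGF-beta-induced matrix protein, rose, with 42.2 and 39.7 FPKM on day 2 and 103 and 85.4 on day 4 (log2 change 1.18, SE 0.16, adjusted p = 0.000803).

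Of 10 small leucine-rich proteoglycans, which bind collagen fibrils, 4 rose and 1 fell. Lum (lumican) measured 54.0 and 51.7 FPKM on day 2 and 447 and 584 on day 4 (log2 change 3.25, SE 0.14, adjusted p = 4.62e-06), and Dcn (decorin) measured 24.7 and 23.5 FPKM on day 2 and 189.9 and 284 on day 4 (log2 change 3.22, SE 0.17, adjusted p = 1.05e-05). In both the day 4 libraries stood far above day 2 and the second was the higher. Ogn (1.78) and Aspn (1.50) also rose, and Fmod (fibromodulin) fell (-1.84). Among 20 tested elastic fibre and glycoprotein genes 6 fell and 1 rose. Fbln2 (fibulin 2) measured 259 and 236 FPKM on day 2 and 96.7 and 73.6 on day 4 (log2 change -1.54, SE 0.15, adjusted p = 0.000172), and Fn1 (fibronectin) measured 537 and 492 FPKM on day 2 and 212 and 112 on day 4 (log2 change -1.73, SE 0.27, adjusted p = 0.00155). Fbn1 (fibrillin 1, -1.44) fell with them, and Matn2 rose (1.42).

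For the 27 collagens and collagen-processing enzymes the result depended on the library. Col3a1 rose, with 449 and 450.1 FPKM on day 2 and 999 and 987 on day 4 (log2 change 1.14, SE 0.12, adjusted p = 0.000223), and its day 4 libraries agreed. Col1a1, Col4a1, Col5a1, Loxl1 and the collagen chaperone Serpinh1 fell, but in each the second day 4 library was clearly lower than the first. Col1a1 measured 1938 and 1886 FPKM on day 2 and 1046 and 594 on day 4 (log2 change -1.28, SE 0.24, adjusted p = 0.0042). Without the second day 4 library none of the 27 was called lower (Col1a1 at -0.87, Loxl1 at -0.79), and without the first 7 were. After the GC and length adjustment 1 was called lower and 2 higher, and the list median moved from -0.28 to 0.00. Col1a1, Col4a1 and Col5a1 have long transcripts of 58.9%, 57.7% and 58.0% GC, and the part of GC content in these values was not tested further.

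Among matrix proteases and their inhibitors 4 of 15 tested rose and 3 fell. Mmp3 (stromelysin) measured 15.7 and 15.8 FPKM on day 2 and 202 and 254 on day 4 (log2 change 3.76, SE 0.14, adjusted p = 2.76e-06). Adamts1 (1.68), the collagenase Mmp13 (1.37) and the gelatinase Mmp2 (1.21) rose as well. Of the tissue inhibitors, Timp1 measured 264 and 257 FPKM on day 2 and 90.6 and 68.1 on day 4 (log2 change -1.72, SE 0.16, adjusted p = 0.000123) and fell, as did Timp3 (-1.26). Mmp14, a membrane-bound protease, fell (-1.04) but lost its call without the second day 4 library (-0.69) and without the first day 2 library (-0.97), and after the GC and length adjustment (-0.91). An AP-1 site, TGACTCA on either strand, lay in the 250 bases before the start of 4 of 13 list genes with an entry (30.8%), against 5.16% of 27025 genes. Of the 4, Mmp3 and Mmp13 rose and the others (Mmp10 and Mmp12) were not tested. Of 8 tested genes without the site 1 rose and 3 fell. Members were listed by known function, so the share describes the list and not the day 4 cells. The sites of Mmp3 and Mmp13 (capitals) are shown at chr9:7445751-7445807 and chr9:7272454-7272510, plus strand.
Mmp3: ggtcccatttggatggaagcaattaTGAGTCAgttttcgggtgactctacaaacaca
Mmp13: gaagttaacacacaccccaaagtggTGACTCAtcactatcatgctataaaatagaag
The part of AP-1 in these changes was not tested. None of the immediate-early and AP-1 genes rose, and 1 was called higher after the GC and length adjustment. Of 15 immediate-early and AP-1 genes tested 2 fell: Fosl1, with 11.7 and 12.5 FPKM on day 2 and 2.99 and 0.564 on day 4 (log2 change -2.39, SE 0.35, adjusted p = 0.00112), and Jun (-1.24).

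Most hypoxia response genes rose. Of 19 tested 14 rose and none fell, beside 6.15% of all genes called higher, and the median was 1.28, with 1.31 in the first and 1.28 in the second day 4 library. Car9, a membrane carbonic anhydrase (chr4:43506966-43513729), measured 0.720 and 0.902 FPKM on day 2 and 24.5 and 23.8 on day 4 (log2 change 3.80, SE 0.13, adjusted p = 1.59e-06). Bnip3, which marks mitochondria for removal, measured 27.1 and 27.1 FPKM on day 2 and 125 and 177 on day 4 (log2 change 2.42, SE 0.18, adjusted p = 4.57e-05). Egln3, a prolyl hydroxylase that acts on HIF, measured 5.47 and 5.82 FPKM on day 2 and 27.9 and 26.6 on day 4 (log2 change 2.09, SE 0.11, adjusted p = 9.99e-06). In all 3 both day 4 libraries stood far above both of day 2. Ndufa4l2 measured 2.15 and 2.67 FPKM on day 2 and 44.3 and 20.3 on day 4, with day 4 libraries more than 2-fold apart (log2 change 3.19, SE 0.35, adjusted p = 0.000267). Ankrd37 (2.40), the pyruvate dehydrogenase kinase Pdk1 (2.07), Fam162a (2.01), Mxi1 (1.79) and Vegfa (1.28) also rose. Of 19 glycolysis genes 4 rose and none fell, with a median of 0.72: Aldoc (2.12), the glucose transporters Slc2a3 (1.63) and Slc2a1 (1.00), and Pgk1 (1.34). Slc2a1 lay at the threshold and was not called without the first day 2 or the second day 4 library (0.99 and 0.92), on TPM (0.88) or with median-ratio scaling (0.9987). After the GC and length adjustment 8 of the 19 were called higher.

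The core of the hypoxia response element, ACGTG on either strand, lay in the 250 bases before the start of 13 of the 17 hypoxia genes with an entry (76.5%), against 18.5% of 27025 genes. Of those 13, 10 rose and 3 were not called; of the 4 without it 2 rose. The list holds known targets of HIF, so the share describes the list and not the day 4 cells. Stretches with the core in capitals are shown for 3 genes that rose: Car9 at chr4:43506983-43507025 (plus strand), Bnip3 at chr7:138909584-138909639 (minus strand) and Egln3 at chr12:54204074-54204124 (minus strand). In Bnip3 the capitals hold the core on both strands. The Car9 stretch lies before the RefSeq start but inside the gene span given above, which is from GENCODE.
Car9: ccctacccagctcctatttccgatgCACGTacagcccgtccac
Bnip3: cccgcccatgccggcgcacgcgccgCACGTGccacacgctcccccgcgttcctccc
Egln3: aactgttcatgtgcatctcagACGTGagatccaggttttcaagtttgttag

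Interferon response genes rose in part: 14 of 29 tested were called higher and none lower, beside 6.15% of all genes called higher, with a median of 0.95; 2 of the 29 stayed under 1 FPKM in all 4 libraries. Ifit1, an RNA-binding antiviral protein, measured 0.812 and 0.855 FPKM on day 2 and 12.3 and 14.7 on day 4 (log2 change 2.98, SE 0.14, adjusted p = 5.31e-06). Bst2 (tetherin), which holds budding virus at the membrane, measured 13.97 and 14.6 FPKM on day 2 and 77.5 and 68.6 on day 4 (log2 change 2.27, SE 0.18, adjusted p = 6.29e-05). Isg15, a ubiquitin-like modifier, measured 1.51 and 2.04 FPKM on day 2 and 7.58 and 12.6 on day 4 (log2 change 1.97, SE 0.26, adjusted p = 0.000763). Both day 4 libraries were above both day 2 libraries in these genes. At day 0 Ifit1 had measured 5.92 and 6.14 FPKM, above its day 2 level. Ifit3 (2.09), Oasl2 (1.69), the regulator Irf7 (1.65) and the class I gene H2-K1 (1.25) rose too. Ifit and H2 genes have close paralogs, between which reads may be split. Of 15 macrophage markers 11 were tested and 1 (Laptm5) rose, and the summed FPKM of the markers was 15.2 and 15.2 on day 2 and 19 and 20.7 on day 4. The part of macrophages in the interferon result was not tested.

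The interferon-stimulated response element, written here as GAAANNGAAA on either strand, lay in the 250 bases before the start of 11 of 24 list genes with an entry (45.8%), against 3.46% of 27025 genes. Of these 11, 7 rose, 3 were not called and 1 was not tested. Of 13 without it 6 rose. The list holds known interferon response genes, so the share describes the list and not the day 4 cells. Shown in capitals, with overlapping copies run together, are those of Ifit1 at chr19:34640760-34640838 (plus strand), Isg15 at chr4:156200850-156200921 (minus strand) and Bst2 at chr8:71537562-71537627 (minus strand).
Ifit1: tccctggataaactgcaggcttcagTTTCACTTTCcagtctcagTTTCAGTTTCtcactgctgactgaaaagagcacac
Isg15: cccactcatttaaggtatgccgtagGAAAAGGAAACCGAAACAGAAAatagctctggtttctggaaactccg
Bst2: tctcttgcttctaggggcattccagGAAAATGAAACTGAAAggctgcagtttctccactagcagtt

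Chemokine, acute-phase and complement genes split, with 5 of 29 tested higher and 4 lower. C1s1, a complement protease, measured 1.55 and 2.16 FPKM on day 2 and 26.2 and 23.4 on day 4 (log2 change 3.18, SE 0.15, adjusted p = 5.31e-06). Serpina3n, an acute-phase protease inhibitor, measured 9.14 and 9.58 FPKM on day 2 and 67.7 and 57.9 on day 4 (log2 change 2.62, SE 0.12, adjusted p = 5.31e-06). Hp (haptoglobin, 2.15) rose, and the chemokines Ccl2 (-1.48) and Cxcl14 (-1.40), the growth factor Csf1 (-1.35) and the receptor Il1rl1 (-3.24) fell. Cxcl12 rose (1.20), but not without the first day 4 library (0.84).

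Cholesterol genes fell in part. Of 24 genes of cholesterol synthesis and uptake 9 fell, beside 4.76% of all genes called lower, and none rose, with a median of -0.86. Mvk (mevalonate kinase) measured 26.7 and 23.4 FPKM on day 2 and 7.51 and 7.88 on day 4 (log2 change -1.58, SE 0.19, adjusted p = 0.000461). Sqle (squalene epoxidase) measured 61.8 and 64.4 FPKM on day 2 and 22.1 and 22.9 on day 4 (log2 change -1.45, SE 0.12, adjusted p = 6.02e-05). In both the day 4 libraries were alike and lay below day 2. Nsdhl (-1.38) and Cyp51 (-1.28), later enzymes of the pathway, also fell. The sterol regulatory element, TCACNCCAC on either strand, lay in the 250 bases before the start of 1 of 16 list genes with an entry (6.25%), against 1.22% of 27025 genes; that gene was not called, and 5 of the 15 without it fell. Here too the share with the element describes the list and not the day 4 cells. The list median was -0.98 in the first and -0.83 in the second day 4 library. Of 14 genes of efflux and fatty acid synthesis 4 fell, Fads2 (-1.65) and Fasn (-1.53) among them, and 1 rose, the ubiquitin ligase Mylip (1.39). Without the first day 4 library 6 of them were called lower and without the second 2. In the lipid droplet and PPAR list 2 of 15 rose, Fabp4 (1.97) and Lpl (1.43), beside 6.15% of all genes called higher, and none fell.

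Cell-cycle inhibitors and p53 targets rose in 8 of 20 cases, and none fell. Cdkn1c (p57), an imprinted inhibitor, measured 5.11 and 5.17 FPKM on day 2 and 40.6 and 47.8 on day 4 (log2 change 2.88, SE 0.18, adjusted p = 2.16e-05). Trp53inp1 measured 10.3 and 9.11 FPKM on day 2 and 38.0 and 40.8 on day 4 (log2 change 1.92, SE 0.17, adjusted p = 9.07e-05). Cdkn2a (1.41), Btg2 (1.31) and Pmaip1 (1.29) rose too. The libraries were close on both days for Cdkn1c and Trp53inp1. Of 28 proliferation genes 2 fell, near the 4.76% of all genes called lower, and none rose, with a median of -0.42. Mki67 measured 37.0 and 37.6 FPKM on day 2 and 23.7 and 11.9 on day 4 and Plk1 51.5 and 46.4 FPKM on day 2 and 31.6 and 14.9 on day 4; both calls were lost without the second day 4 library (-0.63 and -0.61) and without either day 2 library. They were also lost in the fit of the 4 libraries alone (limma adjusted p = 0.0649 for Mki67 and 0.0746 for Plk1), and that of Mki67 with no filter on low values (0.0505) and after the GC and length adjustment (-0.88).

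Growth-factor signalling genes changed singly, beside 6.15% of all genes called higher and 4.76% called lower. In the ERK feedback list 3 of 16 rose, the inhibitors Spry2 (1.50) and Spry1 (1.13) and the transcription factor Etv5 (1.34), and 2 fell, the ligand Hbegf (-1.74) and Phlda1 (-1.07). Phlda1 was not called without the second day 4 library (-0.98) or after the GC and length adjustment (-0.99). Of 14 BMP genes 3 fell, the antagonist Grem1 (-1.22) among them, and the ligand Bmp2 rose (1.50). The Wnt antagonist Dkk2 measured 11.6 and 10.5 FPKM on day 2 and 61.8 and 72.2 on day 4 (log2 change 2.50, SE 0.13, adjusted p = 9.34e-06), one of 3 of 14 Wnt genes that rose; the others were Lef1, a nuclear effector (1.81), and the antagonist Sfrp1 (1.12). In the insulin-like growth factor axis 2 of 15 rose and 3 fell. Igfbp3, a binding protein, measured 26.7 and 26.3 FPKM on day 2 and 229.5 and 210.0 on day 4 (log2 change 3.00, SE 0.11, adjusted p = 2.1e-06). Its ligand Igf1 rose (1.61), and Igfbp5 fell (-1.87). Among 16 genes of xenobiotic and oxidative stress 5 rose, with the aldehyde dehydrogenases Aldh1a1 (2.57) and Aldh3a1 (2.06) highest, and 3 fell, with the sulfiredoxin Srxn1 lowest (-1.34).

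Fibroblast surface and identity genes divided, with 3 of 21 higher and 4 lower. Cd44 fell (-1.28), and Nt5e (1.41) and Dpt (1.92) rose. Thy1 measured 236 and 223 FPKM on day 2 and 139.8 and 91.9 on day 4 and Pdgfrb 48.7 and 44.3 FPKM on day 2 and 25.7 and 13.4 on day 4; both were called lower, but not without the second day 4 library (-0.71 and -0.83), and Thy1 not without the first day 2 library either (-0.97). The GC and length adjustment ended the call of Pdgfrb (-0.98). Markers of other cell types were mostly low. Summed FPKM of 10 endothelial markers was 6.93 and 7.54 on day 2 and 9.76 and 5.60 on day 4, with none called. The 11 neural markers summed to 104 and 106 on day 2 and 158 and 130 on day 4, where Stmn2 rose (1.36) and Nes fell (-1.77). The muscle regulators Myod1, Myog and Myf5 were at 0 in all 4 libraries, and summed FPKM of the 10 muscle markers was 6.37 and 6.35 on day 2 and 3.97 and 2.13 on day 4. Of 10 adipocyte and cartilage markers, summing to 10.2 and 10.2 on day 2 and 8.71 and 8.79 on day 4, Comp rose (1.87) and Col2a1 fell (-2.23). The 8 Schwann and neural crest markers summed to 11.4 and 9.99 on day 2 and 12.6 and 6.67 on day 4, with none called. Their part in the other results was not tested.

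In several further lists few genes were called, beside 6.15% of all genes called higher and 4.76% called lower. Of 26 genes of the amino-acid stress response 1 rose, the arginine transporter Slc7a3, with 15.6 and 15.5 FPKM on day 2 and 43.9 and 55.5 on day 4 (log2 change 1.61, SE 0.14, adjusted p = 8.34e-05), and 1 fell, the transcription factor Atf5, with 42.5 and 41.5 FPKM on day 2 and 23.9 and 10.8 on day 4 (log2 change -1.33, SE 0.29, adjusted p = 0.00751). The day 4 libraries agreed in direction for both and lay more than 2-fold apart for Atf5. Of 26 ribosome biogenesis genes only Utp20 fell (-1.10) and none rose, although the median was -0.41; Utp20 lost its call after the GC and length adjustment (-0.89). Of 23 nuclear genes of the respiratory chain 1 rose, Cox6c (1.49), and of 20 genes of chromatin and DNA methylation 1 rose, the DNA demethylase Tet2 (1.15). Of 18 imprinted genes only Cdkn1c rose, and of 18 Hox genes only Hoxc9 fell (-1.05). Trophoblast genes were split, with Tfap2c and Esx1 (1.50) higher and Krt7 and Gata3 (-1.14) lower among 8 tested. The germline genes Piwil2 (1.10) and Ddx4 (1.07) rose, among 14 tested of which 12 stayed under 1 FPKM in all 4 libraries, and none of 5 tested genes of extra-embryonic endoderm was called. Without the second day 4 library the calls of Atf5 (-0.79), Hoxc9 (-0.73), Gata3 (-0.99) and Ddx4 (0.86) were lost, and that of Hoxc9 also without the first day 2 library (-0.98). The GC and length adjustment ended those of Hoxc9 (-0.99) and Ddx4 (0.94).

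**Figure D3:**
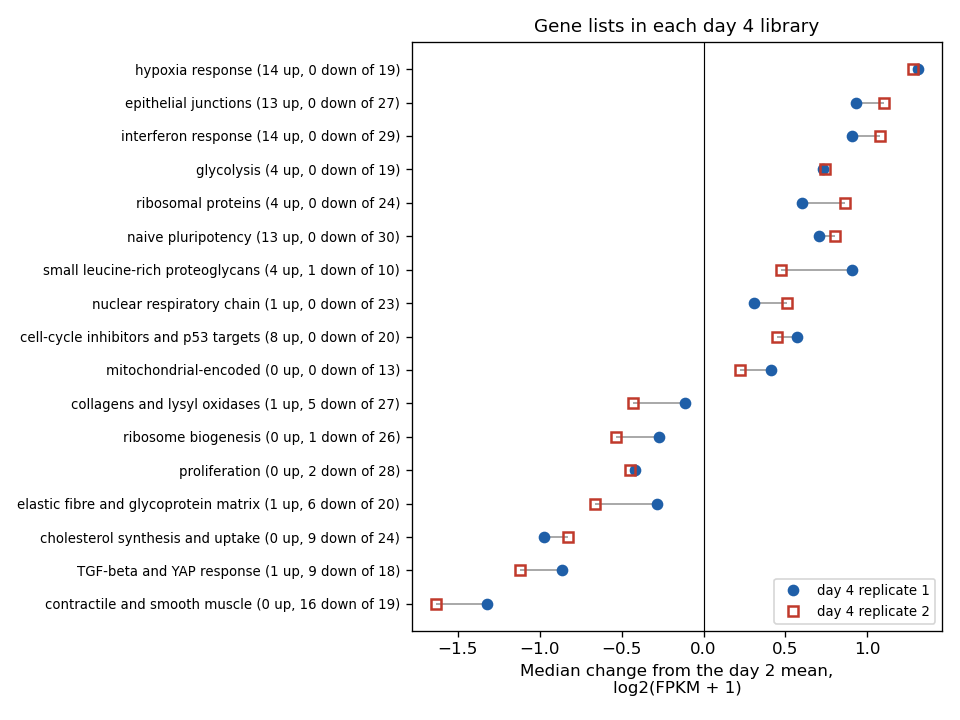
Median change from the day 2 mean, in log2(FPKM + 1), over the tested members of 17 gene lists in day 4 replicate 1 (circles) and replicate 2 (squares), with the number of members called higher (up) and lower (down) beside each name. Both libraries lie on the same side of 0 in all 17 lists. The gap between the library medians is widest in small leucine-rich proteoglycans, matrix glycoproteins and collagens. Member by member, the median of replicate 2 minus replicate 1 in these lists was -0.062, -0.357 and -0.331. By that measure the mitochondrial-encoded genes differed most among the 17 lists, at -0.589, with 3 of 13 genes more than 2-fold apart.

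The day 4 libraries were the least alike of the 5 pairs. Over the genes tested their Pearson correlation in log2(FPKM + 1) was 0.972, against 0.995 for day 0, 0.995 for day 2, 0.992 for day 7 and 0.983 for iPSCs; these are correlations across genes, which are not independent replicates. They stood more than 2-fold apart in 556 genes (3.77%), against 34, 28, 60 and 254 in the other pairs. The second library was the lower in 399 of them (2.7%) and the higher in 157 (1.06%). In 449 of the 556 the day 2 mean lay nearer to the first library, and in 465 the day 7 mean did. The correlation with the day 2 libraries was 0.947 and 0.948 for the first and 0.917 and 0.921 for the second, and with the day 7 libraries 0.956 and 0.956 against 0.933 and 0.927. A difference between 2 single libraries has no replicate check, so no p is given.

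Most of these genes were not called: 142 of the 556 were, 68 higher and 74 lower. Tmsb10 (thymosin beta 10, which binds actin monomers) measured 412 and 368 FPKM on day 2 and 306 and 48.4 on day 4, so that the first library lay below day 2 and the second far below it. Atp5k, a subunit of the mitochondrial ATP synthase, measured 25.03 and 24.5 FPKM on day 2 and 27.3 and 1.25 on day 4, with only the second day 4 library apart. The repressor Tcf7l1 measured 15.0 and 13.6 FPKM on day 2 and 15.8 and 3.13 on day 4, again with only the second day 4 library apart. Ptms (parathymosin) measured 287 and 285 FPKM on day 2 and 216 and 55.2 on day 4, with the first day 4 library below day 2 and the second far below it. The others with the largest difference downward in the second library were Ndufa12, Sept2, Rpl28-ps1, Scand1, mt-Tc and mt-Tn. Some of these genes also differed within other pairs. Atp5k measured 17.9 and 60.3 FPKM in the iPSCs and Sept2 54.9 and 13.1 FPKM on day 7, whereas Tcf7l1 was alike within the other pairs. In the other direction Snhg6, a host gene of small nucleolar RNAs, measured 28.4 and 35.1 FPKM on day 2 and 53.8 and 184 on day 4, and Dpm3, a subunit of the dolichol-phosphate mannose synthase, 8.73 and 5.67 FPKM on day 2 and 13.9 and 45.7 on day 4. Its catalytic partner Dpm1 measured 7.34 and 4.39 FPKM on day 2 and 2.24 and 14.6 on day 4; it was the lowest of the 4 libraries in the first day 4 library and the highest in the second. Dpm1 was 1 of 5 genes past 2-fold from the day 2 mean in opposite directions; the other 4, named after their values were seen (Gm10263, Gm13192, Gm20521 and Gm20716), are predicted gene models. Rps12-ps10, Fdx1l, mt-Th, Rps15a-ps6, Spcs2, mt-Tl2 and mt-Ts2 complete the 10 largest differences upward in the second library.

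Of 731 tested list members 22 stood more than 2-fold apart (3.01%), beside 3.77% of all genes tested. Junb, an AP-1 subunit, measured 61.3 and 49.98 FPKM on day 2 and 70.9 and 25.002 on day 4, above day 2 in the first library and below it in the second, and was not called. Rpl28 measured 317 and 243 FPKM on day 2 and 358 and 144 on day 4 with the same pattern. Igf2, the imprinted growth factor, measured 254 and 243 FPKM on day 2 and 316 and 142 on day 4, again high in the first and low in the second library. Atf4, the main regulator of the amino-acid stress response, measured 109.8 and 101 FPKM on day 2 and 103 and 46.4 on day 4, with only the second library apart from day 2. Of 13 protein-coding genes of the mitochondrial genome none was called; mt-Cytb measured 4288 and 4359.9 FPKM on day 2 and 3606 and 1177 on day 4 and mt-Nd1 3131 and 3038 FPKM on day 2 and 3085 and 1447 on day 4, with the second library far below the other 3. Without the first day 4 library mt-Cytb was called lower (-1.88), as was mt-Nd1 (-1.09); mt-Cytb was also called lower after the GC and length adjustment (-1.52). The mitochondrial list median was 0.39 and turned to -0.30 after the GC and length adjustment. Of 24 ribosomal protein genes 4 rose and none fell, with a median of 0.70; Rps14 (1.26), Rps3 (1.22) and Rpl3 (1.14) were among the 4. Without the first day 4 library 10 of them were called higher, and without the second only Rps14 was; on TPM Rpl3 was not called (0.9955), and without the first day 2 library Rps3 was not (limma adjusted p = 0.0501).

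Several properties of the libraries and transcripts moved with the disagreement. Ribosomal protein genes held 13.4% of the summed FPKM in the first and 17.1% in the second day 4 library, against 9.09% and 9.35% on day 2; the mitochondrial protein-coding genes held 11.6% and 7.90%, against 9.02% and 9.14%. Pseudogenes made up 25.91% of the 556 genes and 7.33% of all tested, and can share reads with their parent genes. Median GC content was 54.78% for genes lower in the second library, 47.48% for those higher in it and 49.72% for all tested. Median transcript length was 1711, 809 and 3054 bases in the same order. With genes in 5 equal groups by GC content, the median difference between the libraries fell in every step, from 0.143 in the group with the least GC (up to 43.7%) to -0.286 in the group with the most (from 55.5%). In the day 2 pair it moved from -0.003 to -0.052, in the day 7 pair from -0.057 to 0.109 and in the iPSC pair from -0.267 to 0.276.

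The gradient was steeper in the second library. Its median change from day 2 ran from 0.21 to -0.279 across the 5 groups, and that of the first library from 0.074 to -0.006. Of the calls, 42 genes fell in the group with the least GC and 259 in the group with the most, whereas 200 and 187 rose. After an adjustment of each library for GC content and length, chosen after seeing the data, 451 genes were still more than 2-fold apart, 317 of them lower in the second library. Under it 1386 genes were called, 843 higher and 543 lower, of which 1179 had also been called without it in the same direction. What sets the second library apart was not tested.

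**Figure D4:**
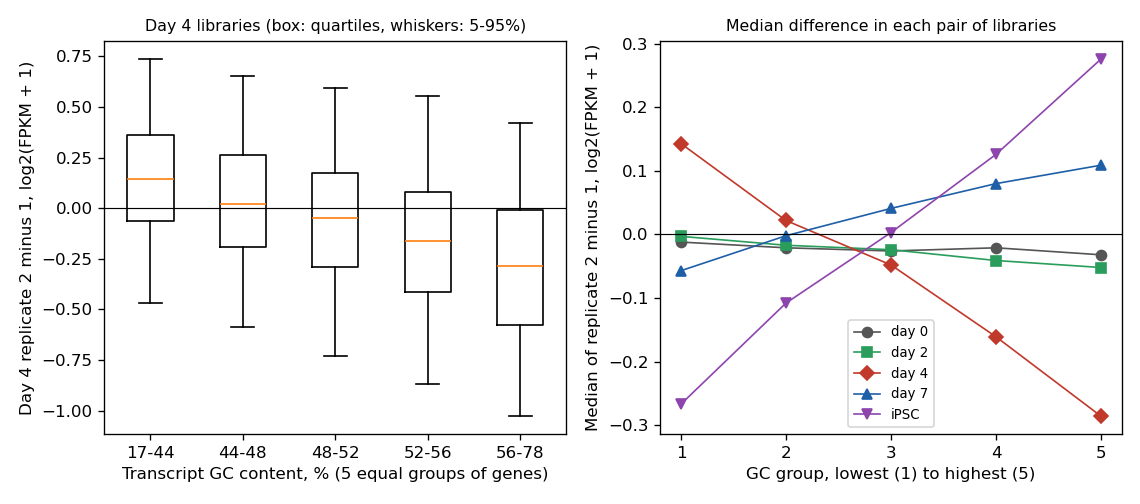
Left, day 4 replicate 2 minus replicate 1 in log2(FPKM + 1) for 5 equal groups of genes by transcript GC content (boxes: quartiles, whiskers: 5th to 95th percentile); right, the median of the same difference in each of the 5 pairs of libraries. The day 4 median falls from 0.143 to -0.286 and the iPSC median rises from -0.267 to 0.276, while the day 0 and day 2 pairs stay near 0.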

How the data were processed

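The authors deposited FPKM per gene for 10 libraries of the 4-factor series. Per the submitters' processing notes, reads were handled with fastp 0.20.1, HISAT2 2.2.1 and StringTie 2.0 on mm10; the annotation and strand setting are not given in the sources used here. Without strand, overlapping and antisense genes cannot be told apart. FPKM holds no read counts and none were recovered, so depth and counting precision are unknown. Identifiers were matched to GENCODE M21 symbols (99.53% of 55401), and 106 symbols had more than 1 identifier.

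Genes with FPKM of at least 1 in 2 or more libraries were fitted as log2(FPKM + 1) with limma 3.58.1 (trend, R 4.3.3) over the 5 groups of 2 libraries, with Benjamini-Hochberg adjustment and a 2-fold minimum. The fit was also run on simulated data, with an outcome not reported here. Those data gave a gene the same spread in every group, unlike the day 4 pair. Tables and figures were made with Python 3.11.15, pandas 2.3.3, numpy 2.4.6 and matplotlib 3.10.9.

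Members and gene lists were chosen with earlier results of these data known. Genes named are the 12 largest rises and falls past 2-fold in each day 4 library (mean in the higher group 5 FPKM or more, predicted models left out), the 10 largest differences each way between the day 4 libraries (FPKM of at least 10 in the higher), list members and the 4 factors; some genes that this rule gives are not reported here. Alternatives were another pseudocount, 2 other filters, TPM and median-ratio scaling, a fit of the 4 libraries alone, library weights, a replicate block, each of the 4 libraries left out and, added after seeing the data, an adjustment of each library for GC content and length by splines with 5 degrees of freedom. Promoter sequences are from RefSeq, GRCm38.p6.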

Additional observations from a re-analysis of the deposited data

How the results depend on the processing

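Counts of calls were recomputed under 13 alternative settings. With a pseudocount of 0.1, 2655 genes were called, 1571 higher and 1084 lower, 1851 of them past 2-fold in each day 4 library, and 1445 genes stood more than 2-fold apart between those libraries. On TPM 1306 genes were called lower and 917 stood apart; TPM values are larger than these FPKM values, so that the pseudocount weighs less. With 1 library left out the count of calls ranged from 1255 to 2484, of higher calls from 808 to 1170, of lower calls from 447 to 1314 and of calls past 2-fold in each day 4 library from 953 to 2484. The highest counts came without the first and the lowest count of lower calls without the second day 4 library. A lone library is then assumed to vary like the other groups. Where only 1 day 4 library remains in the fit, every call is past 2-fold in it by construction. The upper end of the last range, 2484, therefore says nothing about agreement between the day 4 libraries. The shared replicate numbers are not stated to pair samples, and the differences between replicates correlated at 0.1 between day 2 and day 4; with the replicate number as a block 1604 genes were called, 910 higher and 694 lower, 994 of them past 2-fold in each library. Of 198 single genes followed, 4 changed sign without the second day 4 library, none of them called with all libraries: Junb from -1.12 without the first to 0.35 without the second, Rpl28 from -0.94 to 0.36, mt-Nd1 from -1.09 to 0.0004657 and Igf2 from -0.80 to 0.35, with Igf2 at 0.041 after the GC and length adjustment. Over these genes and settings 2478 results kept their side of the threshold, 66 lost the call and 10 gained it; 160 of the 185 called were called with either day 4 library alone.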

Other observations

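Gene groups outside the lists above were assembled after their values were seen, so their counts are descriptions. Of 20 genes of protein folding in the endoplasmic reticulum 12 were called lower and none higher, with a median of -1.11. Hspa5 (BiP), the main chaperone of that compartment, measured 429 and 428 FPKM on day 2 and 79.4 and 93.2 on day 4 (log2 change -2.30, SE 0.14, adjusted p = 2.27e-05). Calr (calreticulin) measured 606 and 588 FPKM on day 2 and 162 and 136 on day 4 (log2 change -2.001, SE 0.15, adjusted p = 4.5e-05). In both every day 4 value lay well below day 2. Manf (-1.73), Hyou1 (-1.49) and the transcription factor Xbp1 (-1.10) were called lower too. Of 24 actin regulators 14 were called lower and none higher, with a median of -1.08; Actn1, an actin crosslinker, measured 197 and 190.5 FPKM on day 2 and 65.4 and 50.8 on day 4 (log2 change -1.73, SE 0.15, adjusted p = 7.96e-05), and Zyx (-1.94) and Myl12b (-2.10) were among the others. Of 12 tubulins 3 were called lower, and Tubb6 measured 190.3 and 176 FPKM on day 2 and 44.4 and 29.9 on day 4 (log2 change -2.30, SE 0.22, adjusted p = 0.000134). Of 20 lysosomal genes 1 was called higher and none lower, with a median of 0.02.

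Genes of stratified epithelium were called higher in 4 of 8 tested, Krtdap among them with 3.23 and 1.72 FPKM on day 2 and 34.1 and 33.6 on day 4 (log2 change 3.36, SE 0.22, adjusted p = 2.57e-05) and Lgals7 with 1.25 and 1.34 FPKM on day 2 and 19.7 and 22.4 on day 4 (log2 change 3.26, SE 0.16, adjusted p = 6.48e-06). Of 22 mitochondrial tRNA genes 17 were called higher and none lower, with a median of 2.04, and 8 of the 22 stood more than 2-fold apart between the day 4 libraries. After the GC and length adjustment 13 were called higher and 1 lower, with a median of 1.55; mt-Tc and mt-Tn were then not called. These genes are shorter than the reads of 150 bp, and what an FPKM of so short a gene counts was not tested.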
